A study of Mus musculus with 4 samples.

Results

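The genes described here are 29 genes of B cell identity and B cell receptor signalling, chosen by name from a fixed list and found by symbol among the 55450 gene rows of the count files. All 29 matched exactly 1 row each, and all 29 passed the filter on low counts that left 18297 genes for testing. RNA came from CD11c+ cells of mesenteric lymph nodes (MLN) of WT C57BL/6J mice, whose age and sex the labels do not give. CD11c, the product of Itgax, is an integrin of dendritic cells that some other leukocytes also carry, and it was selected with magnetic beads, so the cells were enriched and not a pure type. Each sample was a pool of 2 MLNs, and its cells were divided between a control well (H2O) and a well with an Ffar2 agonist at 10 µM, cultured in RPMI with serum for 6 h. Ffar2 is a receptor for short-chain fatty acids. The sources used here do not name the compound. The 4 libraries, made with a kit for very low RNA input, were a control and an agonist well from the pool numbered 2 and the same from the pool numbered 3. All the groups share the strain, the bead selection and the culture, and no uncultured cells were analysed here.

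B cells recognise antigen through a membrane immunoglobulin that signals through the paired chains CD79A and CD79B. Kinases of the SRC, SYK and TEC families, the adaptor BLNK and phospholipase C gamma 2 pass the signal to calcium and NF-kB, while the complement receptor CD21 helps to amplify it and CD22, CD72 and Siglec-G dampen it. The transcription factors EBF1 and PAX5 establish and keep the B cell state, and lymph nodes hold many naive follicular B cells beside their T cells and dendritic cells. Several of the 29 genes are not restricted to B cells: dendritic cells, macrophages or T cells are also known to use Bcl6, Mef2c, Plcg2, Btk, Blnk, Pou2f2, Bach2, Cd37, Cd180, Cd72 and Siglecg. Summary values of these 11 and of the other 18 are therefore also given apart, while single genes are described by role.

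Assigned reads numbered from 43238375 to 59902172 per library, and the 29 genes took 0.217% and 0.144% of them in the control wells of pools 2 and 3 and 0.212% and 0.122% in the agonist wells. Reads of Xist numbered 17776 and 21194 in pool 2 with 0 in pool 3, and those of the Y-linked Ddx3y 18752 and 21461 in pool 3 with 0 in pool 2. By these reads the cells of pool 2 were female and those of pool 3 male. B cell transcripts were plainly present in the bead-enriched cells. Ighm, the IgM heavy chain constant region, had 963 and 697 CPM in the control wells of pools 2 and 3 and 861 and 539 CPM in the agonist wells (CPM, the gene's reads scaled to library size, which was adjusted by the trimmed mean of M-values, TMM). Per kilobase of exon, Ighm averaged 406 RPKM, which is CPM per kilobase, over the libraries, against 29.5 RPKM for Itgax and 13.7 RPKM for the T cell gene Cd3e. In bulk RNA, fewer cells of a type and less RNA per cell cannot be told apart, and this holds for every difference below.

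Levels of different genes are compared here per kilobase of exon, using the merged exon length of all annotated transcripts, which understates genes with long unused exons. The signalling chains of the receptor were at the top, with mean levels of 94.8 RPKM for Cd79a and 66.2 RPKM for Cd79b. Siglecg followed with 65.3 RPKM, next to Cd79b and within its spread over libraries. Plcg2 (30.6 RPKM), Btk (30.0 RPKM), Cd37 (22.7 RPKM), Pou2af1 (21.1 RPKM) and Bcl6 (20.1 RPKM) came next. Their ranges over the libraries overlapped, except that Btk (27.1 to 36.4 RPKM) lay above Bcl6 (17.5 to 22.0 RPKM). The lowest levels were those of Ralgps2 (2.01 RPKM), Cr2 (1.49 RPKM) and Pax5 (0.527 RPKM). The remaining genes lay between 2.17 RPKM for Ebf1 and 17.4 RPKM for Fcrla. The 4 libraries did not share these genes evenly. Control replicate 2 was the highest library for 21 of the 29 genes, against 31.4% of all tested genes, and agonist replicate 3 was the lowest for 21 of the 29, against 25.2%.

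**Figure D1:**
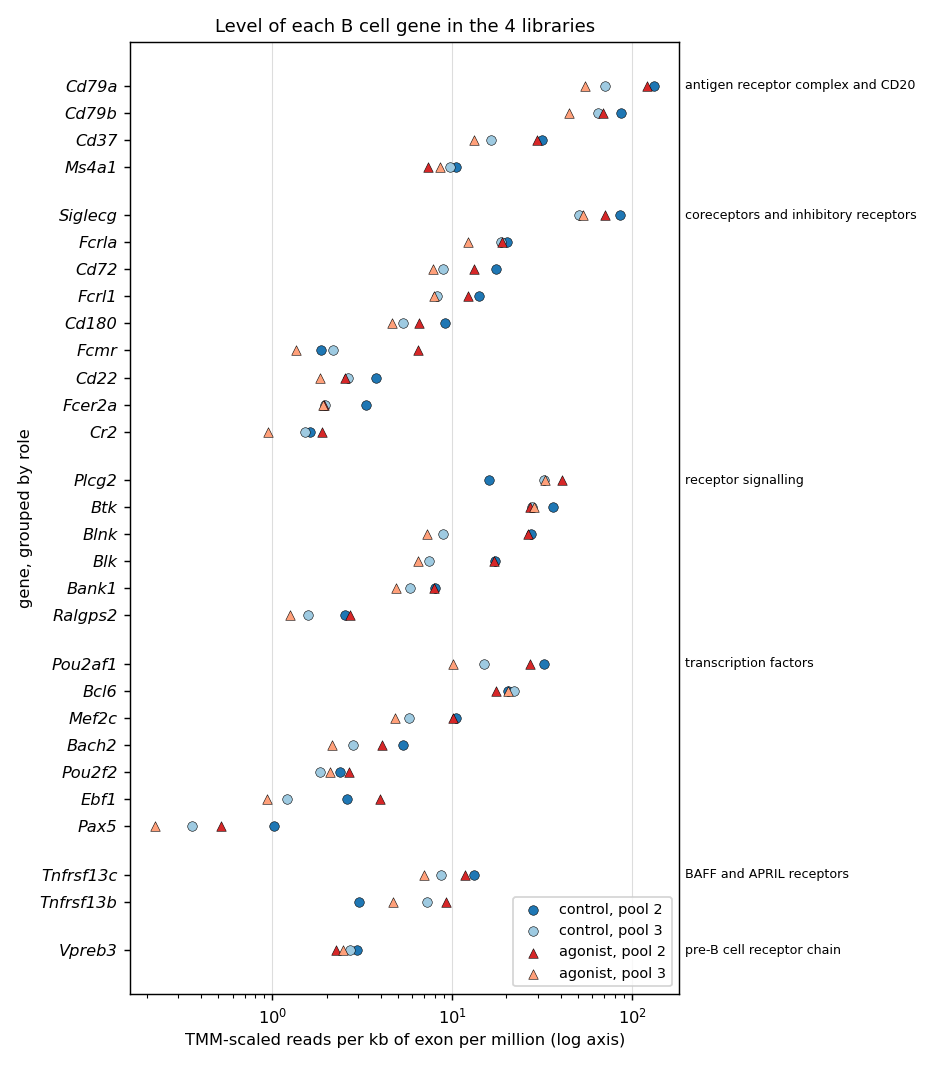
Level of each of the 29 genes in the 4 libraries, in TMM-scaled CPM per kilobase of exon (RPKM) on a log axis, with genes grouped by role; circles are control wells, triangles agonist wells, dark colours pool 2 and light colours pool 3. For most genes the light points of pool 3 lie left of the dark points of pool 2, as in Blnk, where pool 2 had 27.2 and 26.3 and pool 3 had 8.82 and 7.25.

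The promoters of Blnk, Vpreb3 and Cd22 are shown because they are the ones among the 26 genes searched that hold the octamer or the EBF half-sites described below. Only exact matches were searched, and no PAX5 motif was, so other genes may hold variant or PAX5 sites. Blnk is also the gene that passed a test between the pools. RefSeq's table on GRCm38.p6, which gives 250 bases before to 50 after each start, held 35 promoters of 26 of the 29 genes. Cd79b, Ms4a1 and Blk had no promoter there and were not searched. The octamer bound by OCT-2 and OCA-B (ATGCAAAT or, on the other strand, ATTTGCAT) was in 2 of the 35 member promoters, those of Blnk and Vpreb3, and in 1.74% of all 32851 promoters. The EBF half-sites TCCC and GGGA spaced by 2 bases, a palindrome, were in 1 of the 35, that of Cd22, and in 0.904% of all promoters. Only the 250 bases before the start are printed, 5′ to 3′ on the gene's strand, and capitals mark the motif. The octamer began 130 bases before the start in Blnk and 45 bases before it in Vpreb3, and the EBF half-sites began 49 bases before that of Cd22.
Blnk (chr19:40994222-40994471, minus strand): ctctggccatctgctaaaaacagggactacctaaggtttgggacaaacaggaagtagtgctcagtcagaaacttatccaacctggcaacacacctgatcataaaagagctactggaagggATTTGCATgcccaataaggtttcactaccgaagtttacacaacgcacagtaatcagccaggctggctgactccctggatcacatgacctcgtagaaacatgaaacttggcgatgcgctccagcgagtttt
Vpreb3 (chr10:75948050-75948299, plus strand): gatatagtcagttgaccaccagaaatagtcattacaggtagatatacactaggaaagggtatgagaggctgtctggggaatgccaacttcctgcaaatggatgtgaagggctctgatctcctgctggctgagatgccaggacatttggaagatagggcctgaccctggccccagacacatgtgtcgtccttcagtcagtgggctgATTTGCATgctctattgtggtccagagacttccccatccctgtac
Cd22 (chr7:30879029-30879278, minus strand): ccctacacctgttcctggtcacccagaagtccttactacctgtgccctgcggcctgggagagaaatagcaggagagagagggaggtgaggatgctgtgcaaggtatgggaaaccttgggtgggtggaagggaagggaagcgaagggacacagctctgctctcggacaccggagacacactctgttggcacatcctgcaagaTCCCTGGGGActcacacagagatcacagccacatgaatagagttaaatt
The genes with the octamer did not share a value between the pools, as described below. The log2 difference (pool 3 minus pool 2) was -1.74 for Blnk and -0.0018 for Vpreb3. Of the genes for the factors that bind these motifs, Pou2af1 and Ebf1 had log2 differences between the pools of -1.26 and -1.60 and Pou2f2 one of -0.36. A match is a run of letters and not a measured binding site.

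The first comparison asks what the agonist did to these genes within 6 h. None of the 29 genes passed the test, and most had somewhat lower values in the agonist wells. The quasi-likelihood test of edgeR called 0 of 29 at an adjusted p under 0.05, where 0% of all 18297 tested genes were called. At an unadjusted p under 0.05 it again gave 0 of 29, against 1.58% of all tested genes. With the pool as a block, edgeR also called 0 of 29 (background 0.00547%), and 0 of 29 had an unadjusted p under 0.05 (background 3.53%). DESeq2 called 0 of 29 (background 0.0383%) and limma-voom 0 of 29 (background 0%), each with 0 of 29 at an unadjusted p under 0.05. Every one of the 29 had an edgeR adjusted p of 0.9999 without the block and 0.9998 with it. Blocking on the pool changed the precision: the SE of Cd79a, for example, was 0.481 without the block and 0.235 with it. Agonist SEs and intervals below are from the fit without the block unless stated, and so include the difference between the pools.

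Of the 29 log2 differences (agonist minus control), 24 were below 0, against 55.4% of all tested genes, and 20 of the 29 genes were lower in the agonist well of both pools, against a background of 27.8%. In Ms4a1, Cd22, Fcer2a and Vpreb3, 4 of the 29, both agonist libraries lay below both controls (background 13.5%), and in 1, Plcg2, both lay above (background 11.4%). The 4 are near the share of all tested genes, so this lack of overlap does not set them apart. Pou2f2 and Plcg2 were higher in each pool, and 7 genes differed in direction between the pools. The median over the 29 was -0.16 on the log2 scale, against -0.047 over all tested genes, with -0.16 in pool 2 (all tested genes -0.095) and -0.28 in pool 3 (all tested genes -0.0048). Blocking on the pool gave a median of -0.20. The 18 genes not on the list of those used by other cells had a median of -0.21 with 13 of 18 lower in both pools, and the other 11 had -0.16 with 7 of 11 lower in both. In fits without the block, this lean moved when single libraries were left out. The median of the 29 was 0.14 without control replicate 2 and 0.13 without agonist replicate 3, and was -0.40 without control replicate 3 and -0.63 without agonist replicate 2. In each of these fits 1 pool has more libraries in 1 group than in the other, so the difference between the pools enters.

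**Figure D2:**
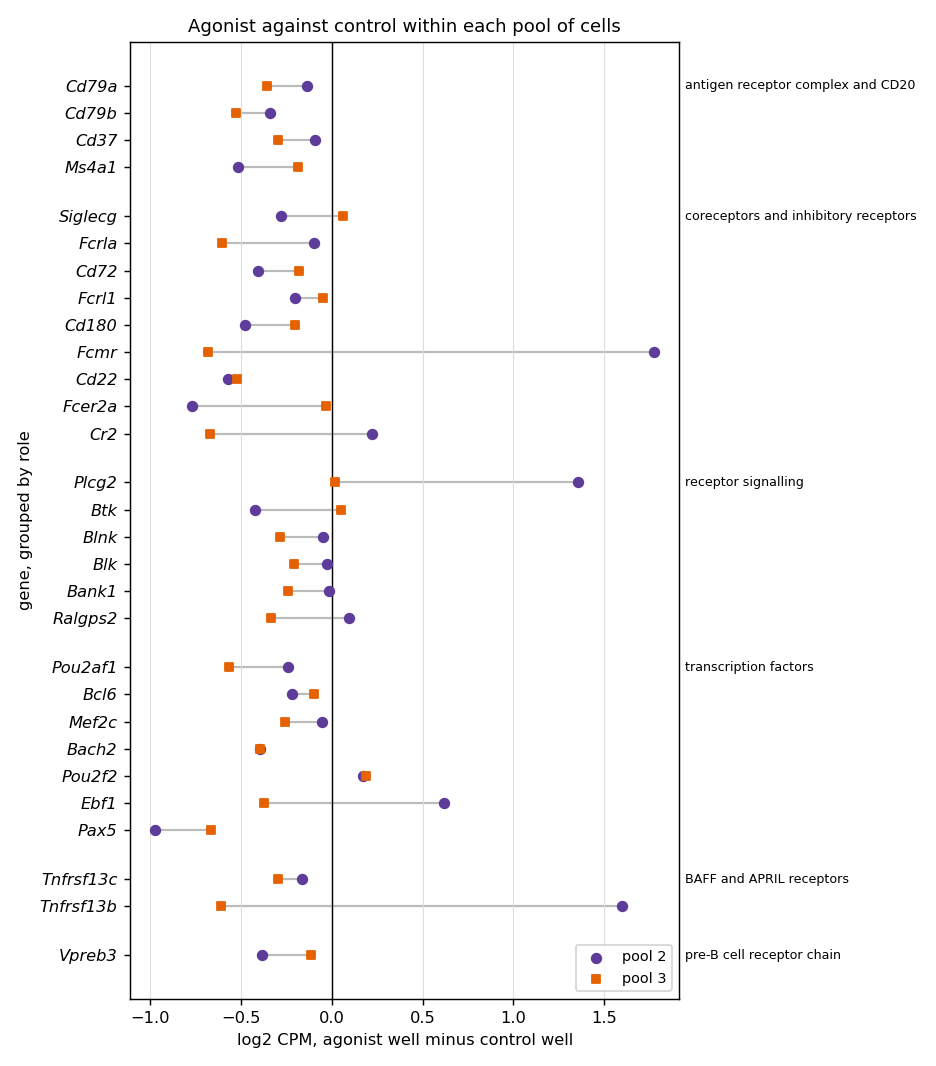
Difference in log2 CPM between the agonist well and the control well of the same pool for each of the 29 genes, with pool 2 as circles and pool 3 as squares, joined by a line. In 20 genes both points lie left of 0, and Fcmr, Tnfrsf13b and Plcg2 have pool 2 values of 1.78, 1.60 and 1.36 that their pool 3 values of -0.68, -0.61 and 0.017 do not share.

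The receptor's signalling chains, CD20 and CD37 make up a group of 4 genes, and all 4 had lower values in the agonist well of both pools. Cd79a, the Ig-alpha chain, had 194 and 102 CPM in the control wells of pools 2 and 3 and 176 and 79.9 CPM in the agonist wells, a log2 difference of -0.21 ± 0.481 (SE). The wells of 1 pool lay close together and the pools far apart, so the control and agonist ranges overlapped. Cd79b, the Ig-beta chain, had 125 and 92.0 CPM in the control wells of pools 2 and 3 and 98.7 and 63.7 CPM in the agonist wells, a log2 difference of -0.42 ± 0.334 (SE). The wells differed by -0.34 in pool 2 and -0.53 in pool 3. Ms4a1, which encodes CD20, had 65.1 and 59.8 CPM in the control wells of pools 2 and 3 and 45.5 and 52.6 CPM in the agonist wells. Both agonist libraries of Ms4a1 lay below both controls, and its log2 difference was -0.35 ± 0.270 (SE), 95% interval -1.003 to 0.31. Cd37, a tetraspanin of B cells and other leukocytes, had a log2 difference of -0.16 ± 0.490 (SE).

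Of the 9 coreceptors and inhibitory or accessory receptors, 6 were lower in both pools and 3 went in opposite directions. Cd22, an inhibitory lectin that binds sialic acid, had 19.1 and 13.2 CPM in the control wells of pools 2 and 3 and 12.8 and 9.22 CPM in the agonist wells, with differences of -0.57 in pool 2 and -0.52 in pool 3. Its control and agonist libraries did not overlap, and its log2 difference was -0.55 ± 0.374 (SE), 95% interval -1.46 to 0.35. Fcer2a, the low-affinity IgE receptor CD23 of follicular B cells, had 10.2 and 6.03 CPM in the control wells of pools 2 and 3 and 5.96 and 5.90 CPM in the agonist wells. The control of pool 2 stood above the other 3 libraries, the groups did not overlap by a narrow margin, and the log2 difference was -0.45 ± 0.423 (SE). Cd72, another inhibitory receptor, Cd180, a Toll-like receptor homologue, Fcrl1 and Fcrla, both Fc receptor-like genes, had log2 differences of -0.33, -0.37, -0.15 and -0.32. Siglecg, the sialic acid-binding inhibitor Siglec-G, had 413 and 245 CPM in the control wells of pools 2 and 3 and 341 and 256 CPM in the agonist wells, with -0.28 in pool 2 and 0.064 in pool 3. Cr2, the complement receptor CD21, had 0.22 in pool 2 and -0.67 in pool 3. Fcmr, the Fc receptor for IgM, had the widest disagreement of the 29, with 141 and 198 reads in the controls and 582 and 133 in the agonist wells. Only the agonist well of pool 2 was high, and the log2 difference of 0.94 ± 0.734 (SE) turned to -0.55 without agonist replicate 2.

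Of the 6 signalling genes, 3 were lower in both pools, 1 was higher in both and 2 went in opposite directions. Plcg2, the phospholipase that makes the calcium-mobilising messenger, had 68.6 and 139.7 CPM in the control wells of pools 2 and 3 and 176 and 141 CPM in the agonist wells. Both agonist libraries lay above both controls, but the control of pool 2 alone was low, and the differences were 1.36 in pool 2 and 0.017 in pool 3. The fitted log2 difference was 0.61 ± 0.393 (SE), and it was 0.18 without control replicate 2 and 1.29 without control replicate 3. Btk, the TEC-family kinase encoded on the X chromosome, had 115 and 87.2 CPM in the control wells of pools 2 and 3 and 85.5 and 90.1 CPM in the agonist wells, 3 close libraries and 1 higher control. Blk, a SRC-family kinase, had 46.7 and 20.1 CPM in the control wells of pools 2 and 3 and 45.9 and 17.4 CPM in the agonist wells, with -0.024 in pool 2 and -0.21 in pool 3. Blnk, the adaptor that joins SYK to PLCG2 and BTK, had 163 and 52.9 CPM in the control wells of pools 2 and 3 and 157 and 43.4 CPM in the agonist wells, with -0.050 in pool 2 and -0.28 in pool 3. For both Blk and Blnk the difference between wells of 1 pool was small beside that between the pools. Bank1, a scaffold protein, had a log2 difference of -0.11 ± 0.353 (SE) and Ralgps2, a Ral exchange factor, one of -0.056 ± 0.465 (SE).

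The 7 transcription factors included the most negative value of the 29. Pax5, which maintains B cell identity, had 391 and 165 reads in the controls and 237 and 112 in the agonist wells. This is 8.98, 3.16, 4.56 and 1.97 CPM in the same order, with differences of -0.97 in pool 2 and -0.67 in pool 3. The value was lower in both pools, yet the control of pool 3 lay below the agonist well of pool 2, and the log2 difference of -0.89 ± 0.675 (SE) had a 95% interval of -2.53 to 0.74. Blocking on the pool gave -0.83 ± 0.398 (SE), with an unadjusted edgeR p of 0.0673. Ebf1, which acts with Pax5, had 25.2 and 11.8 CPM in the control wells of pools 2 and 3 and 38.7 and 9.06 CPM in the agonist wells. It went the other way in pool 2, with 0.62 in pool 2 and -0.38 in pool 3. Pou2af1, the OCA-B coactivator, and Pou2f2, its DNA-binding partner OCT-2, had log2 differences of -0.34 ± 0.565 (SE) and 0.18 ± 0.333 (SE). Bach2, a repressor that holds back plasma cell formation, had nearly the same difference between agonist and control wells in each pool (-0.40 in pool 2 and -0.39 in pool 3). Bcl6, the germinal centre repressor, and Mef2c had -0.16 ± 0.261 (SE) and -0.12 ± 0.459 (SE).

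The receptors for the survival factors BAFF and APRIL did not share a direction. Tnfrsf13c, the BAFF receptor, had 27.1 and 17.6 CPM in the control wells of pools 2 and 3 and 24.2 and 14.3 CPM in the agonist wells. Each agonist value was under the control value of its pool. Tnfrsf13b, which encodes TACI, had 8.61 and 20.4 CPM in the control wells of pools 2 and 3 and 26.2 and 13.3 CPM in the agonist wells, with 1.60 in pool 2 and -0.61 in pool 3. Its lowest library was the control and its highest the agonist well of pool 2, as for Plcg2, and the same agonist well was the highest for Fcmr. Vpreb3, a chain made mainly by immature B cells, had the fewest reads of the 29 summed over libraries, and its log2 difference was -0.26 ± 0.491 (SE).

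The wider pathway, from lists of other genes, gave no call either. Of 32 further genes of antigen receptor signalling, 0 passed in edgeR with or without the block (0 at an unadjusted p under 0.05 in either). Their median was -0.060, with 9 of 32 lower in both pools (background 27.8%). Among those with the smallest unadjusted p values were Itpr1, a calcium channel of the endoplasmic reticulum, Pik3r1, the regulatory subunit of PI3 kinase, and the kinase gene Lyn. Their log2 differences were -0.43 ± 0.276 (SE), 0.48 ± 0.317 (SE) and 0.34 ± 0.268 (SE). Of 23 other B cell regulators and surface genes, 0 passed in either fit (again 0 at an unadjusted p under 0.05). Their median was -0.087, with 9 of 23 lower in both pools (background 27.8%). The receptor's own immunoglobulin chains had -0.25 ± 0.329 (SE) for Ighm, 0.054 ± 0.681 (SE) for Ighd, the IgD constant region, and -1.11 ± 0.396 (SE) for Igkc, the kappa light chain constant region that plasma cells also make. Igkc had an unadjusted edgeR p of 0.0292 and an adjusted one of 0.9999, so it did not pass. Immunoglobulin genes resemble each other closely and may share reads, which makes their values uncertain.

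T cell and plasmacytoid dendritic cell markers mostly had lower values with the agonist as well, and none of them passed. Of 20 T cell markers, 18 were lower in both pools (background 27.8%) with a median log2 difference of -0.56, and 0 passed in edgeR. At an unadjusted edgeR p under 0.05 there were 12 with the block (background 3.53%) and 0 without it (background 1.58%). Their summed level was 2402 and 1324 CPM in the control and 1818 and 1016 CPM in the agonist wells. Of 8 markers of plasmacytoid dendritic cells, an interferon-producing lineage that shares several genes with B cells, 6 were lower in both pools (background 27.8%). The median of the 8 was -0.38, and they summed to 1055 and 707 CPM in the control and 813 and 511 CPM in the agonist wells. The 18 B cell genes summed to 806 and 527 CPM in the control and 745 and 406 CPM in the agonist wells. Conventional dendritic cell markers had a median of 0.20 with 5 of 12 higher and 3 of 12 lower in both pools. Medians were -0.072 for 10 monocyte and macrophage, -0.28 for 7 NK cell and -0.45 for 7 tested stromal, follicular dendritic and endothelial markers. No gene of the T cell, plasmacytoid or conventional dendritic lists was at 0 in all libraries. The part of the cell mixture in the values of the 29 genes was not tested.

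**Figure D3:**
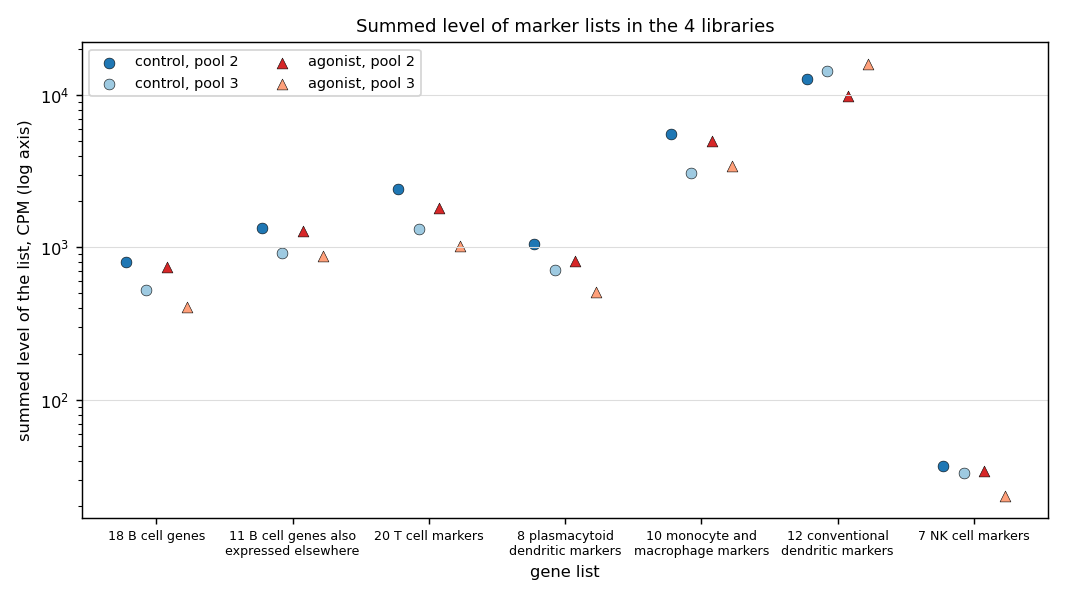
Summed level of each gene list in CPM on a log axis for the 4 libraries, with circles for control and triangles for agonist wells, dark for pool 2 and light for pool 3. The 18 B cell genes (806, 527, 745 and 406 CPM), the T cell markers (2402, 1324, 1818 and 1016 CPM) and the plasmacytoid markers (1055, 707, 813 and 511 CPM) share the order of the libraries, and conventional dendritic markers, which Ccr7 dominates, do not.

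The second comparison sets the cells of pool 3 against those of pool 2, with the condition as a covariate. It has 1 pool per arm with a control and an agonist well each, and its p-values reflect only how much wells filled from the same cells vary, and sex cannot be told apart from any other difference between the pools. B cell genes mostly had lower values in pool 3 than in pool 2, in the control and in the agonist wells alike. Of the 29, 25 had a log2 difference (pool 3 minus pool 2) below 0, with a median of -0.64 against -0.0060 over all tested genes. In 20 of 29 both libraries of pool 3 lay below both of pool 2 (background 25.2%), and in 1, Bcl6, both lay above (background 24%). The median difference was -0.68 in the control and -0.75 in the agonist wells, which are separate libraries of the same pools. At an unadjusted p under 0.05 edgeR gave 15 of 29 lower, against 7.7% of all tested genes. After adjustment over all 18297 genes edgeR called 1 of 29 lower, Blnk, against 0.29%. The 18 genes not on the list of those used by other cells had a median of -0.63, and 0 of them were called. The other 11, which include Blnk, had a median of -0.64. Both libraries of pool 3 lay below both of pool 2 in 12 of the 18 and in 8 of the 11 (background 25.2%).

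Blnk, whose promoter is shown above, had 7101 and 8190 reads in the wells of pool 2 and 2763 and 2465 in those of pool 3. Every pool 3 value was under every pool 2 value, with CPM-based log2 differences of -1.62 in the control and -1.86 in the agonist wells. The fitted difference was -1.74 ± 0.246 (SE), 95% interval -2.30 to -1.18, edgeR adjusted p = 0.0327. The call was lost with total counts only (edgeR adjusted p = 0.168), with a stricter filter (0.0652) and without the condition as a covariate (0.107), while the difference stayed between -1.82 and -1.73. Blnk is also used by plasmacytoid dendritic cells, and their marker Klk1 was called lower in pool 3 as well, by -2.49 with an edgeR adjusted p = 0.0250. The 8 plasmacytoid markers had a median of -0.74, and in 6 of the 8 both libraries of pool 3 lay below both of pool 2 (background 25.2%). The part of those cells in the Blnk value was not tested. Other methods called more of the 29 lower: 7 in DESeq2 (background 2.37%), 4 in limma-voom (background 0.956%) and 6 in edgeR with no filter (background 1.26%). All 3 methods called Blnk, Ebf1, Blk and Pou2af1. DESeq2 and edgeR with no filter added Cd79a and Cd37, and DESeq2 added Mef2c.

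**Figure D4:**
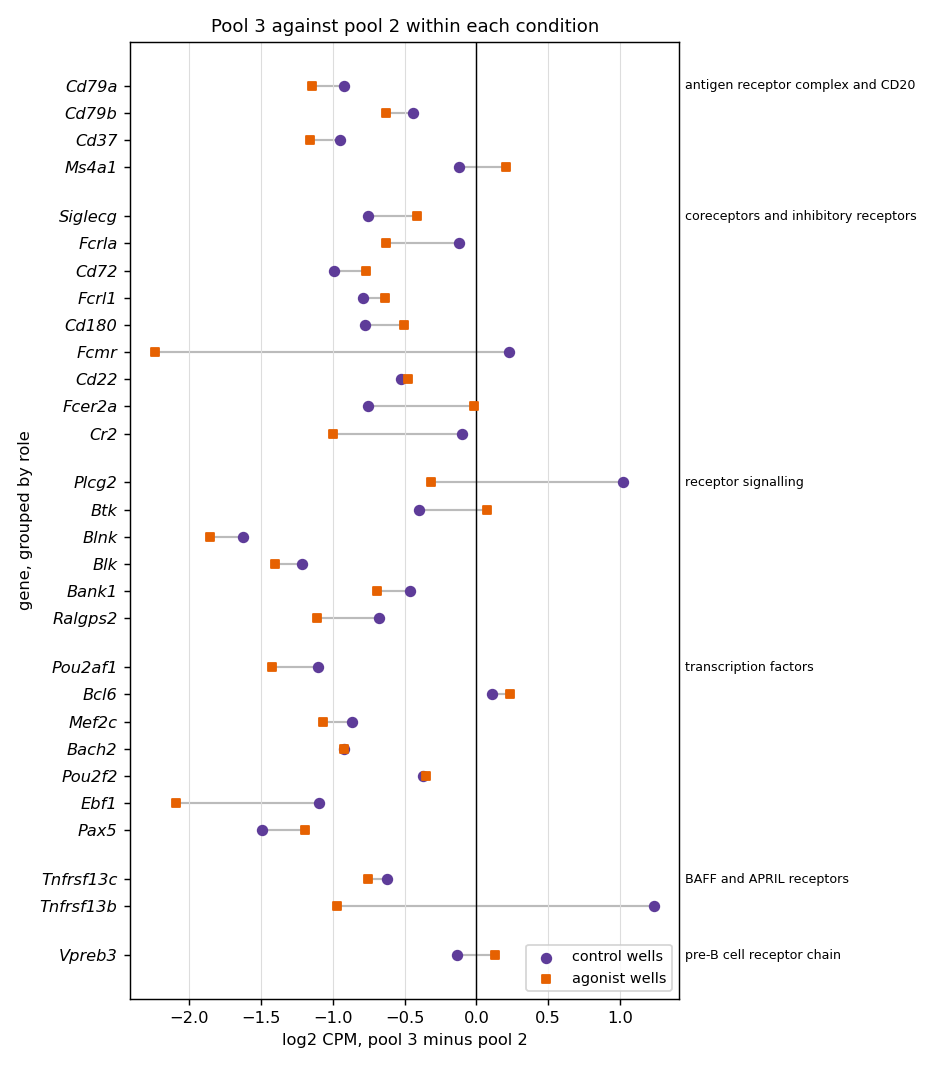
Difference in log2 CPM between pool 3 and pool 2 for each of the 29 genes, within the control wells (circles) and within the agonist wells (squares), joined by a line. In 22 genes both points lie left of 0, with Blnk at -1.62 and -1.86, and Fcmr, Tnfrsf13b and Plcg2 have points on both sides.

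The size of the pool difference varied among the genes. Behind Blnk came Ebf1 at -1.60 ± 0.346 (SE), Pax5 at -1.36 ± 0.402 (SE), Blk at -1.31 ± 0.275 (SE) and Pou2af1 at -1.26 ± 0.261 (SE). Their edgeR adjusted p-values were 0.0881, 0.172, 0.0847 and 0.0815. Pax5 and Ebf1, the factors of B cell identity, were among the 3 most negative genes, and neither passed in the main edgeR fit. DESeq2, limma-voom and edgeR with no filter called Ebf1 but not Pax5. Cd37, Cd79a, Mef2c, Bach2, Ralgps2 and Cd72 had values from -1.05 to -0.88, each lower in both conditions. Cd79b, at -0.54 ± 0.241 (SE), differed less than its partner Cd79a, at -1.03 ± 0.237 (SE), but the difference between these values was not tested. Fcrl1, Tnfrsf13c, Cd180, Siglecg, Bank1, Cr2, Cd22, Fcrla and Pou2f2 ranged from -0.71 to -0.36, and all 9 were lower in both conditions. Fcer2a, at -0.39 ± 0.374 (SE), was lower in both too, with -0.75 in the control and -0.013 in the agonist wells.

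The other genes were higher in pool 3 in both conditions or went in opposite directions. Ms4a1, although it encodes the B cell antigen CD20, had a log2 difference of 0.043 ± 0.256 (SE) with -0.12 in the control and 0.21 in the agonist wells, and its sign turned with total counts only (-0.039) and with the stricter filter (-0.012). Vpreb3 had -0.0018 ± 0.502 (SE), whose sign also depended on the scaling (0.016 with DESeq2 size factors). Bcl6 had 0.17 ± 0.233 (SE) and was higher in pool 3 in both conditions. Btk had -0.16 ± 0.251 (SE), with -0.40 in the control and 0.077 in the agonist wells. Fcmr was at -1.02 ± 0.611 (SE). The values of Fcmr (0.22 in the control and -2.24 in the agonist wells), Plcg2 (1.02 in the control and -0.31 in the agonist wells) and Tnfrsf13b (1.24 in the control and -0.97 in the agonist wells) went in opposite directions in the conditions and were the widest apart of the 29. Plcg2 was at 0.35 ± 0.331 (SE) and Tnfrsf13b at 0.13 ± 0.507 (SE), whose sign turned to -0.046 without the condition as a covariate.

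Beyond the 29 genes, most T cell markers and some other B cell genes had lower values in pool 3 too. Ighd, a constant region of naive B cells, passed, with 194 and 62.7 CPM in the control wells of pools 2 and 3 and 201 and 65.5 CPM in the agonist wells. Its log2 difference was -1.63 ± 0.238 (SE), edgeR adjusted p = 0.0341. H2-Ob, which controls antigen loading in B cells, had -1.19 ± 0.235 (SE) and the transcription factor gene Ets1 -1.34 ± 0.266 (SE). Their edgeR adjusted p-values of 0.0744 and 0.0744 did not pass. Of the 23 other regulators 0 passed in edgeR (10 at an unadjusted p under 0.05, in either direction), with a median of -0.30. Over all tested genes 7.7% had such an edgeR p in the lower direction alone. In 11 of the 23 both libraries of pool 3 lay below both of pool 2 (background 25.2%), and in 7 both lay above (background 24%). Their summed level was 2969 and 2972 CPM in the control wells of pools 2 and 3 and 2633 and 3056 CPM in the agonist wells. Of the 32 other signalling genes 0 passed in edgeR (11 at an unadjusted p under 0.05, in either direction, against 7.7% in the lower direction alone). Their median was -0.40, with Malt1 at -1.31 ± 0.233 (SE). Both libraries of pool 3 lay below both of pool 2 in 18 of the 32 (background 25.2%) and above in 6 (background 24%). T cell markers had a median of -1.12, and 19 of 20 were lower in both conditions. In 17 of the 20 both libraries of pool 3 lay below both of pool 2 (background 25.2%), and 2 were called lower (background 0.29%). Among the called was the adhesion receptor gene Cd2 at -1.72 ± 0.263 (SE), with an edgeR adjusted p-value of 0.0362. Conventional dendritic cell markers had a median of 0.40. In 7 of the 12 both libraries of pool 3 lay above both of pool 2 (background 24%), and in 1 both lay below (background 25.2%). Itgax itself was at -0.87 ± 0.233 (SE). Monocyte and macrophage markers had a median of -0.43. The part of the cell mixture in the pool differences of the 29 genes was not tested.

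In the annotation 8 of the 29 genes share exon bases with another gene, 7 of them with a gene on the opposite strand. The overlap covers 41.6% of the exon length of Cd72, shared with Tesk1, 9.5% of Cd22, 5.4% of Bach2 and 4.04% of Cd180. In Pax5 it covers 7.18% and 1.41%, and in Bcl6, Cd37 and Pou2f2 from 0.313% to 0.425%. Without strand, reads there cannot be assigned to one gene of a pair, and the values of Cd72 are the most exposed to this.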

How the data were processed

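SMART-seq libraries were sequenced from 2 control and 2 agonist wells. The deposited values are raw read counts per gene, which the authors made with STAR 2.7 and HTSeq 0.11.1 on GRCm38 (mm10), per the submitters' processing notes; whether strand was used is not given in the sources used here. Rows that name no gene (reads in no feature, 15.96% to 19.99%, ambiguous reads, 5.77% to 6.50%, and reads not aligned uniquely, 6.54% to 6.98%) were left out. Genes were kept with filterByExpr at a minimum count of 10 and tested with the quasi-likelihood test of edgeR 4.0.16 (R 4.3.3), TMM scaling, the group as the term and Benjamini-Hochberg adjustment over all genes tested. Wells of the same number came from the same pool, per the labels' protocols, and their deviations from the group means correlated at 0.288 over genes. The pools were compared with group and pool as terms. Log2 CPM differences within a pool used a prior count of 2. Alternatives were the replicate block, DESeq2 1.42.0, limma-voom 3.58.1, other scalings and filters, and leaving out each library. The tests were tried on simulated data, but the outcome is not given here, so the size of change they could detect is not stated. The 29 genes and all lists were chosen with earlier results of these data known. Text names all 29, and from each other list at most 4 genes with the smallest p, beside Ighm, Ighd, Igkc, Cd3e, Itgax and Zbtb46, and some genes this would name are not reported here. P-values and SEs of the agonist fit without the block include the difference between the pools. Those of fits with a pool term and the group reflect only the spread between these wells.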

Additional observations from a re-analysis of the deposited data

How the results depend on the processing

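With the agonist, edgeR called 0 genes, 1 with the replicate block, 9 with no filter, 7 with DESeq2 and 0 to 2 leaving out a library, and 0 of the 29 in every setting. The median of the 29 was -0.28 within pool 3 and -0.63 to 0.14 leaving out a library. The replicate block changed no other call. Blk (0.0050) and Ralgps2 (0.023) turned positive with the stricter filter. The fits that leave out a library have no pool term, so the difference between the pools enters their values. Blnk, which ranged from -1.28 to 0.92 in these fits, differed between wells by only -0.050 in pool 2 and -0.28 in pool 3. Leaving out a library in turn, the log2 difference spanned both sides of 0 for 20 genes: Bach2 -0.89 to 0.14, Bank1 -0.46 to 0.19, Blk -0.91 to 0.65, Blnk -1.28 to 0.92, Btk -0.31 to 0.0096, Cd180 -0.63 to 0.068, Cd37 -0.82 to 0.39, Cd72 -0.73 to 0.25, Cd79a -0.85 to 0.32, Cr2 -0.69 to 0.27, Ebf1 -0.99 to 1.06, Fcmr -0.55 to 1.66, Fcrl1 -0.46 to 0.30, Mef2c -0.72 to 0.37, Pax5 -1.58 to 0.046, Pou2af1 -1.18 to 0.31, Ralgps2 -0.68 to 0.39, Siglecg -0.39 to 0.29, Tnfrsf13b -0.087 to 1.28, Tnfrsf13c -0.61 to 0.13. The other 9 kept their sign: Bcl6 -0.28 to -0.0099, Cd22 -0.77 to -0.27, Cd79b -0.73 to -0.14, Fcer2a -0.71 to -0.024, Fcrla -0.63 to -0.042, Ms4a1 -0.46 to -0.21, Plcg2 0.18 to 1.29, Pou2f2 0.028 to 0.38, Vpreb3 -0.33 to -0.15.

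Between the pools, the 72 genes called became 5 with total counts only, 600 with no filter, 8 with the stricter filter (minimum count 50), 706 with DESeq2, 271 with limma-voom and 5 without the group as a term. Of the 29, the 1 called became 0, 6, 0, 7, 4 and 0 in the same order. The median was -0.72 with total counts only, -0.70 with the stricter filter, -0.75 in agonist wells only and -0.82 to -0.67 leaving out a library, which leaves no residual degrees of freedom and no test. Ms4a1 turned to -0.039 and -0.012 (total counts only, stricter filter), Tnfrsf13b to -0.046 (no group term) and Vpreb3 to 0.016, 0.0079 and 0.016 (DESeq2 size factors, no filter, DESeq2). Where a count moved, the cause was not tested. With the replicate block the SE was 0.235 for Cd79a and 0.492 for Vpreb3, which had 101 to 121 reads per library.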

Other observations

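Of 7 tested genes of the germinal centre, where activated B cells mutate their receptors, 3 had higher values in pool 3 in both conditions, 1 had lower values in both and 3 went in opposite directions. The fitted log2 difference was below 0 in 2 of the 7, against 50.4% of all tested genes, with a median of 0.94, and edgeR called 0. At an unadjusted edgeR p under 0.05 there were 3 in either direction, against 7.7% of all tested genes in the lower direction alone. Gcsam, which restrains the movement of germinal centre B cells, was at 1.88 ± 0.330 (SE), and S1pr2, which holds cells in the follicle centre, at 1.33 ± 0.320 (SE). The summed level of the 8 listed genes was 166 and 306 CPM in the control and 144 and 307 CPM in the agonist wells. Fas, which dendritic and T cells also use, was at 0.94 ± 0.236 (SE).

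Early B cell genes were scarce. Of 7 listed, 3 passed the filter on low counts and Vpreb2 had no read in any library. Dntt, which adds bases during receptor rearrangement and is also used by precursors of plasmacytoid dendritic cells, had 19.7 and 11.2 CPM in the control wells of pools 2 and 3 and 13.1 and 4.83 CPM in the agonist wells. Its log2 difference between the pools was -1.12 ± 0.339 (SE), and edgeR called 0 of the 3 in either comparison.

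Of 7 tested plasma cell genes, 3 had higher values with the agonist in both pools, 1 had lower values in both and 3 went in opposite directions. The fitted log2 difference was below 0 in 1 of the 7, against 55.4% of all tested genes, and edgeR called 0. At an unadjusted edgeR p under 0.05 there was 1 (background 1.58%), Jchain, the joining chain of IgA and IgM and the 1 below 0. Jchain had 66.9 and 100.4 CPM in the control wells of pools 2 and 3 and 21.6 and 25.8 CPM in the agonist wells, a log2 difference of -1.82 ± 0.328 (SE) with an unadjusted edgeR p of 0.00126 and an adjusted one of 0.9999. Both agonist libraries lay below both controls. Prdm1, which encodes BLIMP-1 and is also used by dendritic cells and T cells, had 0.65 ± 0.475 (SE). The median of the 7 was 1.17 in pool 2 and -0.13 in pool 3.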
